A study of Mus musculus and Rattus norvegicus with 26 samples.

Results

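The cyclic nucleotide signalling genes are the genes that make, break down, sense and anchor the machinery of cyclic AMP and cyclic GMP. They were chosen by symbol alone from 6 lists of contigs, which are stretches of intron covered by sequencing reads. A contig was taken when its gene symbol began with Pde and a digit, or with Adcy, Akap, Prka, Prkg or Gucy. The rule took 65 of the 13695 genes in the 6 lists together. Counted list by list, these genes held 575 of 85860 introns and 890 of 112345 contigs. The symbols also bring in genes outside the pathway proper. Among them are 7 subunits of the AMP-activated kinase, which share a prefix with the subunits of the cyclic AMP-dependent kinase. The others are Adcyap1r1, a receptor for the neuropeptide PACAP, Pde4dip, a centrosomal and Golgi protein that binds a phosphodiesterase, and Pde12, a mitochondrial enzyme that shortens poly(A) tails. In the mouse annotation 78 genes with introns fit the rule, and 64 of them (82.1%) were in at least 1 mouse list. The remaining gene of the 65, Akap12, was listed in rat only.

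Cyclic AMP is made from ATP by adenylyl cyclases, most of which sit in the cell membrane and answer to G proteins, and cyclic GMP is made by guanylyl cyclases that answer to nitric oxide or to peptides. Phosphodiesterases end both signals, and the kinases PKA and PKG carry them on, with A-kinase anchoring proteins (AKAPs) holding PKA at chosen places in the cell. In neurons the pathway shapes synaptic strength, in brown fat it turns on the burning of lipid, and in the heart it sets the force and rate of contraction.

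The study asked how often intron sequence is kept in RNA outside the nucleus, and it used dendrites and somas of cultured hippocampal neurons beside single cells of other kinds. There were 3 mouse dendrite and 3 mouse soma libraries from C57BL/6 mice, and 2 rat dendrite and 3 rat soma libraries from Sprague-Dawley rats, all from animals at embryonic day 18. There were also 6 libraries of brown adipose tissue (BAT) cells from between the shoulder blades of CD-1 mice at embryonic day 17.5, and 9 cardiomyocyte libraries from transgenic C57BL/6 mice at embryonic day 14.5. These numbers follow the sample labels, the published text states fewer cells of both kinds, and the lists do not say which libraries went into them. No group was treated, and all RNA went through 3 rounds of aRNA amplification, which starts from a poly(T) primer. The dendrites were cut by hand and many were pooled in each library, so the number of dendrites that hold an RNA and its amount per dendrite cannot be told apart. The cuts do not separate dendrites from axons. Somas, BAT cells and cardiomyocytes were taken with their nuclei, so in these lists unspliced nuclear RNA and introns kept outside the nucleus cannot be told apart. The BAT cells were chosen by shape from cells in culture. The cardiomyocytes came from ventricles of embryos hemizygous for a fluorescent cell cycle probe and were sorted by flow cytometry.

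Each group has 1 list that pools its libraries, so there is no error between libraries and no test between groups. Shares carry 95% Wilson intervals and ratios of read counts carry 95% exact intervals (Clopper-Pearson, conditional on the sum). Both cover counting error only. The lists hold 3086576 intronic reads for mouse dendrites, 1855447 for mouse somas, 1007530 for rat dendrites, 2094541 for rat somas, 17858440 for BAT cells and 12201042 for cardiomyocytes. A read count is raw, belongs to a whole intron and is repeated on each contig of that intron, so it was taken once. RPM means a gene's intronic reads scaled to 1000000 intronic reads in its list.

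The labels were checked against marker genes. Of 10 cardiomyocyte markers, 9 were in the cardiomyocyte list, with 26893 RPM in all, against 1279 in the BAT list. Ryr2, the calcium release channel of heart muscle, had the most, and the transcription factor Gata4 was at 0. Of 10 brown fat markers, 8 were in the BAT list with 8959 RPM, led by the fatty acid carrier Fabp4, while the coactivator Ppargc1a and the receptor Adrb3 were at 0. The cardiomyocyte list held 4 of them with 328 RPM, led by Cidea, which was higher there (213 RPM) than in BAT cells (86.7). Both cell labels thus have most of their markers, with a few that are missing. Of 10 neuronal markers, 9 were in the mouse soma list (10904 RPM), 8 in mouse dendrites (2639), 6 in rat somas (8815) and 4 in rat dendrites (1718). The dendrite marker Map2 was at 0 in all 6 lists, and 8 neuronal markers were also in the BAT list (1830 RPM), led by Dlg2, a scaffold of the synapse, and 3 in the cardiomyocyte list (926 RPM). Microglial, astrocyte and fibroblast markers had 159, 45.4 and 33.9 RPM in BAT cells and none in cardiomyocytes. The sum of endothelial markers went the other way, with 206 RPM in BAT cells and 288 in cardiomyocytes. That rests on Tek alone, with 158 and 287 RPM, while Pecam1, Cdh5, Kdr and Flt1 were higher in BAT cells. Astrocyte markers reached 966 RPM in mouse dendrites and 142 in mouse somas. In dendrites they came mainly from Aldh1l1, a folate enzyme of astrocytes, with Slc1a2 and Gja1 at 0, and in somas from the glutamate carrier Slc1a2, with Gfap, Aqp4 and Gja1 at 0. Microglial markers had 342 RPM in mouse dendrites and 168 in mouse somas, with Cx3cr1 at 0 in both. In rat, microglial markers had 696 RPM in dendrites, all from Itgam, and 59.7 in somas, all from Ptprc. Some markers of other cells also differ. In rat, fibroblast markers had 319 RPM in dendrites and 0.955 in somas, endothelial markers 250.1 and 2.86, and oligodendrocyte markers 138 and 27.7. In mouse, cardiomyocyte markers had 780.5 RPM in dendrites and 15.6 in somas, and brown fat markers 417 and 2.16, so the mouse dendrite list also holds introns of genes known from other tissues. Other sums are closer, with endothelial markers at 639 and 733 RPM and fibroblast markers at 70.3 and 55.0 in mouse dendrites and somas. Cardiomyocyte markers had 77.4 and 60.6 in rat. Close sums can hide genes that differ. In mouse dendrites and somas Flt1 had 443 and 4.31 RPM and Kdr 3.24 and 381, and the fibroblast reads of mouse somas were all from Pdgfra. The part of other cells in the differences between dendrites and somas, or between BAT cells and cardiomyocytes, was not tested.

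Intronic reads from the cyclic nucleotide signalling genes were found in every list. The lists held 53 of these genes in mouse dendrites, 37 in mouse somas, 31 in rat dendrites, 28 in rat somas, 57 in BAT cells and 31 in cardiomyocytes. They took 0.841% of the list's reads in mouse dendrites (0.830 to 0.851), 0.884% in mouse somas (0.871 to 0.898) and 1.18% in rat dendrites (1.16 to 1.20). In rat somas the share was 1.53% (1.52 to 1.55), in BAT cells 0.410% (0.407 to 0.413) and in cardiomyocytes 0.903% (0.897 to 0.908). The share was thus highest in rat somas and lowest in BAT cells. A few introns carry much of it. The most read intron alone held 55.7% of these reads in mouse somas and 15% in BAT cells, and the 3 most read held between 34.3% (BAT cells) and 81.5% (mouse somas). Kept to contigs of at most 400 nt, the share of list reads would be 0.437% in rat dendrites and 1.6% in mouse somas, so the order of the lists depends on that limit.

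At least 256 reads in an intron is a high cutoff in the paper, and as a raw count it is not scaled to the size of a list. Such an intron was found in 12 of the 53 genes in mouse dendrites (22.6%, 13.5 to 35.5), where 23.5% of all listed genes have one. The count was 4 of 37 in mouse somas (10.8%, 4.29 to 24.7) against 18.7% of all genes, and 8 of 31 in rat dendrites (25.8%, 13.7 to 43.2) against 15.8%. It was 13 of 28 in rat somas (46.4%, 29.5 to 64.2) against 30.4%, 24 of 57 in BAT cells (42.1%, 30.2 to 55.0) against 40.2%, and 15 of 31 in cardiomyocytes (48.4%, 32 to 65.2) against 42.9%. Each of these wide intervals holds the share of all genes, so the counts do not set these genes apart from their lists. The counts fell to 1 in rat dendrites, 2 in mouse somas and 6 in rat somas when only contigs of at most 400 nt were kept.

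**Figure D1:**
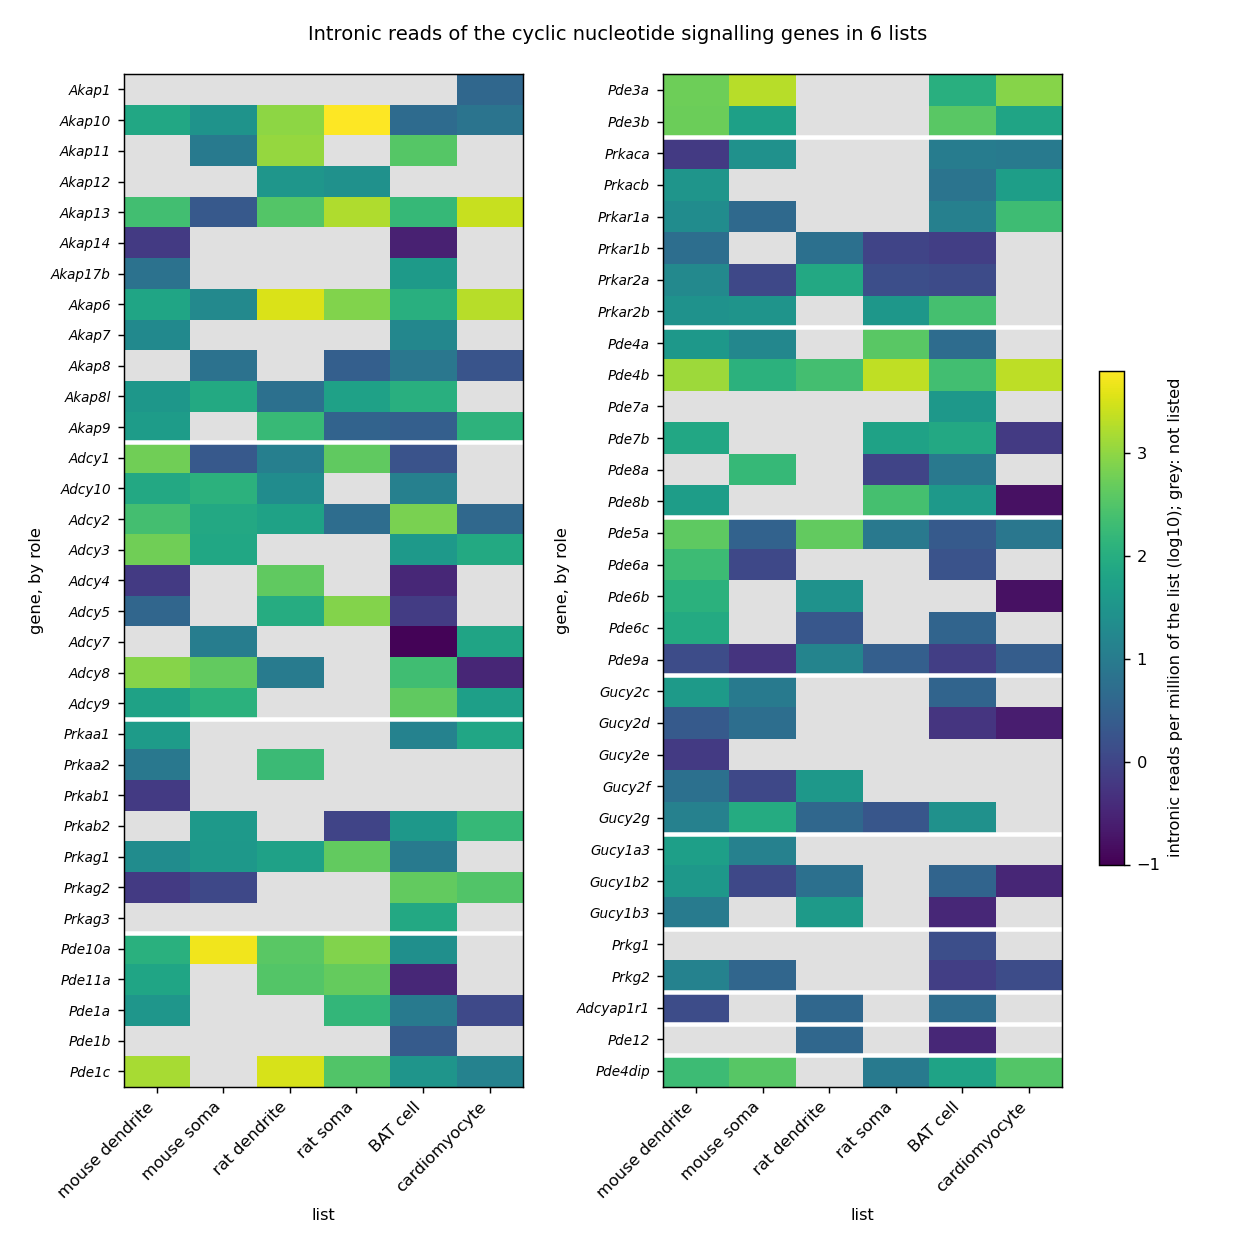
Intronic reads scaled to 1000000 reads of the list (RPM; colour, log10 scale) for the 65 genes (vertical axis, grouped by role, white lines between roles) in the 6 lists (horizontal axis), with genes that are not listed in grey. Akap10 in rat somas and Pde10a in mouse somas are among the brightest cells, and 7 genes have a value in every list.

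The genes in all 6 lists were Adcy2, Akap6, Akap10, Akap13, Pde4b, Pde5a and Pde9a, 7 of the 65. Another 11 were in 5 lists and 7 were in 1 list only. Pde4b, which breaks down cyclic AMP and is a target of the drug rolipram, had 3810 reads in mouse dendrites, 231 in mouse somas, 237 in rat dendrites, 4652 in rat somas, 3954 in BAT cells and 25866 in cardiomyocytes. In RPM it ran from 124 in mouse somas to 2221 in rat somas, with cardiomyocytes at 2120 and mouse dendrites at 1234. Nearly all of it came from the first intron of the listed transcript, which held between 86.5% (cardiomyocytes) and 100% (mouse somas and both rat lists) of the gene's reads. In 3 of the mouse lists the contigs lie in an annotated intron of 231754 nt, and the reads lay in 15 contigs in mouse dendrites, 15 in BAT cells and 25 in cardiomyocytes, which cover only 5.93% of the intron in cardiomyocytes. The listed reads of Pde4b in these 3 lists thus lay in short pieces spread over a very long intron. Pde9a, which breaks down cyclic GMP, was the faint opposite, with 1 read in mouse somas and 32 in cardiomyocytes as its lowest and highest counts.

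Some contigs end next to a run of adenines in the genome, a place where a poly(T) primer can bind. For the 4 mouse lists, a much read intron that has a contig with such a run within 50 nt after its end is shown. The first intron of Pde4dip is shown too, where the same run follows a contig in 3 lists. The introns shown were chosen after their values were seen. Not every chromosome was open to this choice, so an intron with more reads may have been passed over. Each window is from the mouse genome (mm9) on the strand of the gene and holds the last 60 nt of the contig, the gap, the run of adenines in capitals and 15 nt after it.
Adcy2 intron 4, mouse dendrites, chr13:68883300-68883390 (minus strand): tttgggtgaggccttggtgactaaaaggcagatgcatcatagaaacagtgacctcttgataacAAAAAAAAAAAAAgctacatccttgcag
Pde3a intron 1, mouse somas, chr6:141247344-141247444 (plus strand): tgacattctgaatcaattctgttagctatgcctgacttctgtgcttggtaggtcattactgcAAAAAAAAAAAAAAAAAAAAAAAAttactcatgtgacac
Pde3b intron 1, BAT cells, chr7:121614685-121614782 (plus strand): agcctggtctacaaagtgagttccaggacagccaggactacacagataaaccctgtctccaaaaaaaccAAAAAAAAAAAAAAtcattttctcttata
Pde4b intron 1, cardiomyocytes, chr4:102104972-102105063 (plus strand): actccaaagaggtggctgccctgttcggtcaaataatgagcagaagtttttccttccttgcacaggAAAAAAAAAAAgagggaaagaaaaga
Pde4dip intron 1, mouse somas, chr3:97569236-97569326 (minus strand): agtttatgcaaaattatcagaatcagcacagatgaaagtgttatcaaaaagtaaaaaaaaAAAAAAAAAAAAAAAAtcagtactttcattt

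In Pde4dip the contig ends inside the run, so only the adenines past its end are in capitals, 16 in mouse somas. The same intron had 50 reads in mouse dendrites, 514 in mouse somas and 994 in BAT cells, always in a single contig. These 3 contigs are 273, 1043 and 358 nt long and start at different places, but they end within a few bases of one another, at chr3:97569272, chr3:97569267 and chr3:97569263. The Pde3a window has a run of 24 adenines that begins 2 nt after the contig, in an intron with 3523 reads in mouse somas. In Adcy2 the run has 13 adenines 3 nt after the contig, in Pde3b 14 adenines at 9 nt and in Pde4b 11 adenines at 6 nt. Apart from Pde4dip these introns hold several contigs, 4 in Pde3a and 25 in Pde4b, and their reads cannot be assigned to 1 of them.

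Most contigs of these genes have no such run. At least 10 adenines within 300 nt after the contig were found for 18 of 232 contigs in mouse dendrites (7.76%, 4.96 to 11.9) and 11 of 81 in mouse somas (13.6%, 7.76 to 22.7). They were found for 20 of 314 in BAT cells (6.37%, 4.16 to 9.63) and 5 of 115 in cardiomyocytes (4.35%, 1.87 to 9.78). Over all contigs of the same lists the shares were 8.08%, 18.5%, 7.34% and 9.42%, so these genes lie below the share of their list, and the intervals hold it in each case. Before the contigs the shares were 4.74%, 1.23%, 4.46% and 4.35%, where all contigs have 2.80%, 2.59%, 2.57% and 2.40%. Runs of thymines on the gene's strand, which are adenines on the other strand, followed 3.88%, 2.47%, 3.50% and 6.96% of the contigs, against 4.32%, 4.19%, 4.23% and 4.45% of all contigs. They came before 9.91%, 8.64%, 7.64% and 4.35%, against 12.5%, 11.4%, 8.92% and 7.61%. Where a run of adenines followed, its median distance was 26.5, 1, 10.5 and 7 nt in the same order of lists. A match of letters in the genome is a description and does not show where copying began.

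**Figure D2:**
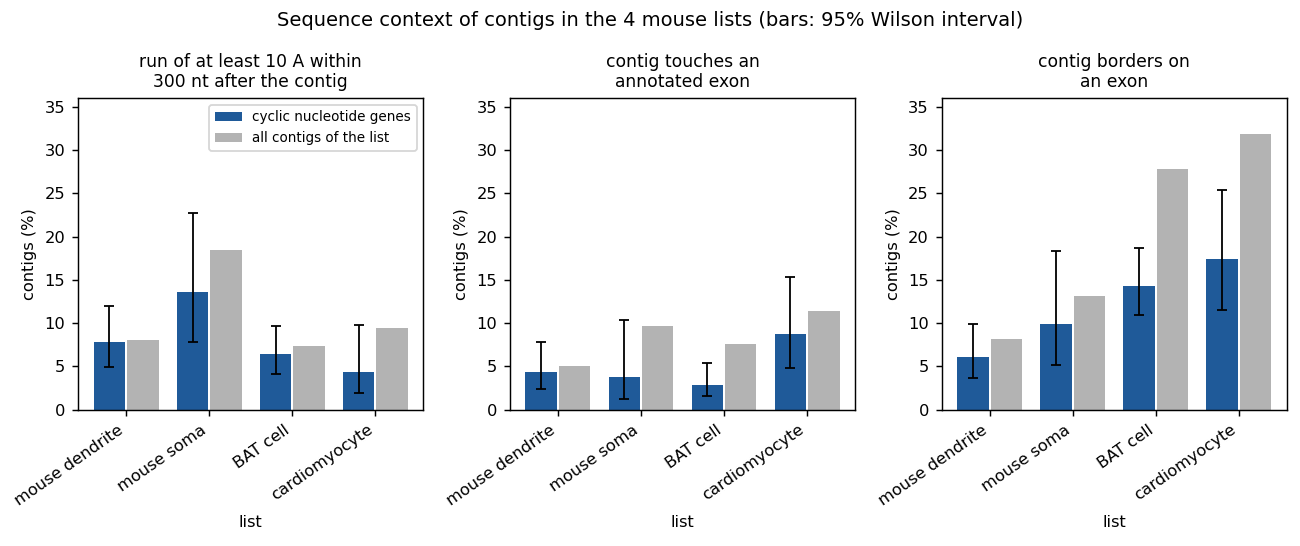
Share of contigs (vertical axes, percent) in the 4 mouse lists (horizontal axes) for the cyclic nucleotide signalling genes (blue, with 95% Wilson intervals) and all contigs (grey). The panels count contigs with a run of adenines after them, touching an annotated exon, or directly beside an annotated exon of any gene. Contigs beside an exon are the clearest gap, with 14.3% against 27.8% in BAT cells and 17.4% against 31.8% in cardiomyocytes.

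The genes fall into 13 roles, and the roles take very different parts of the reads from list to list. Phosphodiesterases that act on both cyclic nucleotides held 78.0% of the genes' reads in mouse somas, 33.6% in rat dendrites and 33.1% in mouse dendrites. Rat somas had 58.5% of the reads in AKAPs, rat dendrites 51.5% and cardiomyocytes 51.1%, but mouse somas 1.66%. Adenylyl cyclases held 33.7% in BAT cells and 28.4% in mouse dendrites. No role led in all 6 lists. Phosphodiesterases of cyclic GMP had 9.64% in mouse dendrites and 4.11% in rat dendrites, and under 1% in each of the other 4 lists.

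**Figure D3:**
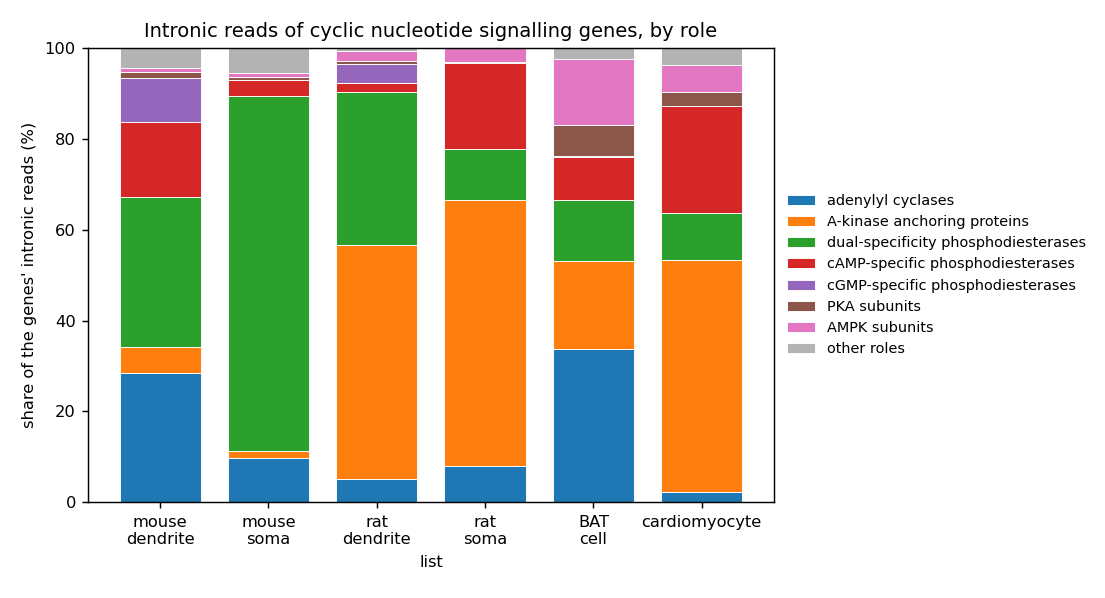
Share of the intronic reads of the cyclic nucleotide signalling genes (vertical axis, percent) by role (colours) in each of the 6 lists (horizontal axis). AKAPs take over 50% in both rat lists and in cardiomyocytes, and phosphodiesterases with dual specificity take 78.0% in mouse somas.

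Of the 9 adenylyl cyclases, 9 were in the BAT list, 8 in mouse dendrites, 7 in mouse somas, 6 in rat dendrites, 5 in cardiomyocytes and 3 in rat somas. Adcy2, a cyclase found mainly in brain, had 711 reads in mouse dendrites, 147 in mouse somas, 59 in rat dendrites, 11 in rat somas, 12236 in BAT cells and 51 in cardiomyocytes. BAT cells were highest at 685 RPM, with mouse dendrites next at 230, and 11004 of the BAT reads lay in intron 3, in 7 contigs (147 reads per 50 nt of contig), with 959 in intron 4, 197 in intron 2 and 64 in intron 1. Adcy8, a calcium-stimulated cyclase of neurons, had 2653 reads in mouse dendrites, 838 in mouse somas, 10 in rat dendrites, none in rat somas, 3796 in BAT cells and 4 in cardiomyocytes. Intron 1 was its most read intron in mouse dendrites and BAT cells, but not in mouse somas. In mouse dendrites introns 1, 8, 2 and 13 led with 1405, 478, 292 and 277 reads, followed by introns 11 and 7 with 110 and 89, while in mouse somas introns 5 and 9 had 715 and 115.

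Adcy1, the other calcium-stimulated cyclase of neurons, had 1755 reads in mouse dendrites, 4 in mouse somas, 12 in rat dendrites, 906 in rat somas, 30 in BAT cells and none in cardiomyocytes. It was thus high in mouse dendrites and rat somas. In mouse dendrites intron 2 held 1657 of the reads, and at 153 reads per 50 nt of contig it was the densest of these introns in that list. Introns 4 and 8 had 60 and 38. Adcy3, the cyclase of olfactory signalling and of neuronal cilia, had 1812 reads in mouse dendrites, of which intron 1 held 1782, beside 137 in mouse somas, 714 in BAT cells and 1003 in cardiomyocytes, and none in rat. Adcy9, a cyclase of many tissues that is insensitive to forskolin, was highest in BAT cells with 7613 reads, against 184 in mouse dendrites, 218 in mouse somas and 616 in cardiomyocytes. Of the BAT reads, 6474 were in intron 1, 738 in intron 8, 337 in intron 2 and 48 in intron 9, and a contig of intron 2 touches an annotated pseudogene in each mouse list. Among the rest, Adcy5, the main cyclase of the striatum, had 1684 reads in intron 11 in rat somas and 96 reads in rat dendrites. Adcy4 had 422 reads in rat dendrites, 420 of them in intron 11, and at most 6 elsewhere. Adcy7, known from blood cells, had 790 reads in cardiomyocytes, 20 in mouse somas and 2 in BAT cells.

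The phosphodiesterases with dual specificity were led by Pde10a, an enzyme of striatal neurons, in mouse somas. It had 339 reads in mouse dendrites, 9172 in mouse somas, 373 in rat dendrites, 1604 in rat somas, 438 in BAT cells and none in cardiomyocytes. Mouse somas stand apart, and 9139 of their reads were in intron 2, in 4 contigs, the 12th most read intron of that list. One of these contigs touches an exon of an annotated Pde10a transcript, so part of the reads may belong to that exon. Without introns whose contigs touch an annotated exon, an alternative chosen after seeing the data, the genes' share of mouse soma reads was 0.453%, against 0.884% with them. In rat somas the 1604 reads were all in intron 1, in 5 contigs.

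Pde1c, a calcium and calmodulin-stimulated enzyme, had 4593 reads in mouse dendrites, none in mouse somas, 3300 in rat dendrites, 665 in rat somas, 564 in BAT cells and 168 in cardiomyocytes. It was the gene with the most reads in mouse dendrites and the second in rat dendrites. In mouse dendrites intron 3, 163328 nt long, held 4511 reads in 12 contigs and intron 4 held 44, while in rat dendrites intron 17 held 3239 in 1 contig and intron 3 held 54. Pde3a and Pde3b, enzymes that cyclic GMP inhibits, were in the 4 mouse lists and in neither rat list. Pde3a had 1716 reads in mouse dendrites, 3525 in mouse somas, 1878 in BAT cells and 10435 in cardiomyocytes, where it is known to control contraction. Its most read intron was the same in 2 of these lists. Intron 2 led in mouse dendrites with 1480 reads beside 234 in intron 1, intron 1 led in mouse somas (3523) and BAT cells (1276), and intron 10 led in cardiomyocytes with 6979, before introns 1, 7 and 4 with 1917, 1139 and 368. Pde3b, the enzyme through which insulin holds back lipolysis in fat cells, had 1628 reads in mouse dendrites, 98 in mouse somas, 6698 in BAT cells and 778 in cardiomyocytes. Scaled to the list it was highest in mouse dendrites, at 527 RPM against 375 in BAT cells. In BAT cells intron 1 had 4644 reads, introns 4 and 5 had 937 and 721, and introns 14, 7, 11 and 8 had 166, 84, 82 and 46. Pde1a was listed with 324 reads in rat somas and none in rat dendrites, and with 102 reads in mouse dendrites and none in mouse somas.

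Among phosphodiesterases of cyclic AMP, Pde4b led in 5 of the lists, and Pde8a had more reads in mouse somas. Beside intron 1, Pde4b had 3482 reads in intron 4 in cardiomyocytes, in 1 contig with 248 reads per 50 nt, and 35 reads in intron 4 in mouse dendrites. Pde8a, an enzyme with high affinity for cyclic AMP, had 313 reads in mouse somas, none in mouse dendrites, 2 in rat somas and 158 in BAT cells. In mouse somas its introns 20 and 17 had 199 and 110 reads. Pde4a had 775 reads in rat somas, none in rat dendrites, and 113 and 31 in mouse dendrites and somas. The phosphodiesterases of cyclic GMP were few in reads outside dendrites. Pde5a, the target of sildenafil, had 1276 reads in mouse dendrites, 6 in mouse somas, 444 in rat dendrites, 18 in rat somas, 41 in BAT cells and 96 in cardiomyocytes. Dendrites of both species lie far above the other lists, at 413 RPM in mouse and 441 in rat, against at most 8.59 elsewhere. In rat dendrites the reads were in introns 7, 19 and 20, with 269, 121 and 54. Pde6a, a subunit of the enzyme of rod photoreceptors, had 596 reads in mouse dendrites, 2 in mouse somas and 30 in BAT cells.

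PKA is a complex of catalytic and regulatory subunits, and 6 of its genes were listed. They held from 0.243% of the genes' reads in rat somas to 6.81% in BAT cells. Prkar2b, a regulatory subunit abundant in brain and fat, had 4412 reads in BAT cells, 86 in mouse dendrites, 56 in mouse somas, 73 in rat somas and none in rat dendrites or cardiomyocytes. In BAT cells its intron 1 had 3949 reads in 6 contigs, and introns 6, 10 and 9 had 190, 159 and 37. A contig of intron 1 touches an exon of another annotated transcript of the gene. Without introns whose contigs touch an annotated exon, Prkar2b had 463 reads in BAT cells. The 6.81% of BAT cells thus rests largely on intron 1, with 3949 of the 4987 reads of PKA subunits. Intron 9, of 760 nt, was the opposite of the long introns above, since its contig covers 100% of it. Cardiomyocytes had another regulatory subunit, Prkar1a, with 2540 reads against 225 in BAT cells, 66 in mouse dendrites and 8 in mouse somas. Prkaca, the main catalytic subunit, had 2 reads in mouse dendrites, 49 in mouse somas, 186 in BAT cells and 110 in cardiomyocytes, and none in rat.

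AKAPs bind PKA and place it near its targets. Of 12 listed, Akap13, which also switches on the small GTPase RhoA, had 695 reads in mouse dendrites, 4 in mouse somas, 339 in rat dendrites, 3642 in rat somas, 2937 in BAT cells and 30463 in cardiomyocytes. The cardiomyocyte value is the highest raw count of any of these genes in any list. Intron 7 alone held 24526 reads there, in 1 contig of 2749 nt that covers 81.8% of the intron and touches an exon of another Akap13 transcript. Introns 16, 3 and 5 had 2687, 1963 and 1280 reads, and the contig of intron 16 touches such an exon as well. In rat somas introns 30 and 18 had 1640 and 1538 reads, and introns 32, 19, 16 and 10 had 186, 136, 106 and 36. Akap6, the AKAP of the nuclear envelope of heart muscle, had 209 reads in mouse dendrites, 34 in mouse somas, 3493 in rat dendrites, 1634 in rat somas, 1955 in BAT cells and 24058 in cardiomyocytes. It was high in cardiomyocytes and rat dendrites. In cardiomyocytes introns 4, 11 and 3 had 14992, 8319 and 747 reads. In rat dendrites introns 1 and 4 had 3219 and 272, and in rat somas introns 10, 6 and 11 had 878, 489 and 267.

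Akap10, an AKAP that binds both kinds of regulatory subunit, had 238 reads in mouse dendrites, 54 in mouse somas, 974 in rat dendrites, 13316 in rat somas, 85 in BAT cells and 86 in cardiomyocytes. Rat stands above mouse, and rat somas above rat dendrites. In rat somas intron 8 held 11752 reads in 1 contig of 735 nt, which is 799 reads per 50 nt, the densest of the 575 introns, with 1210 in intron 7 and 354 in intron 11. In rat dendrites the reads lay elsewhere, with 703, 214 and 42 in introns 5, 2 and 14. Akap11, which also binds the kinase GSK3, had 18 reads in mouse somas, 1108 in rat dendrites, 6096 in BAT cells and none in the other 3 lists. In BAT cells introns 2 and 11 had 4344 and 1750 reads, and in rat dendrites introns 1 and 6 had 702 and 406. Akap9, a large AKAP of the centrosome and Golgi, had 1553 reads in cardiomyocytes, 50 in BAT cells, 139 in mouse dendrites, none in mouse somas, 172 in rat dendrites and 7 in rat somas.

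The guanylyl cyclases were weak. The 5 membrane forms held at most 1.19% of the genes' reads in a list and the 3 soluble forms at most 1.15%. Among the membrane forms, Gucy2g, a cyclase of an olfactory ganglion, had 471 reads in BAT cells and 167 in mouse somas. Among the soluble forms, which bind nitric oxide, Gucy1a3 had 156 reads in mouse dendrites. The 2 PKG genes had 42 reads or fewer in every list. The AMP-activated kinase senses low energy rather than a cyclic nucleotide, and its subunits held 14.4% of the genes' reads in BAT cells. Prkag2, its regulatory subunit known from a cardiomyopathy, had 8066 reads in BAT cells, 3882 in cardiomyocytes and 2 in each of the mouse neuron lists. Intron 1 held 7606 and 3362 of these reads, with 243 and 209 in introns 6 and 11 in BAT cells and 520 in intron 14 in cardiomyocytes. Contigs of intron 1 touch an exon of a noncoding transcript on the other strand in both lists, and in cardiomyocytes also an exon of another Prkag2 transcript. Without introns whose contigs touch an annotated exon, Prkag2 had 460 reads in BAT cells and 520 in cardiomyocytes. The 14.4% in BAT cells thus rests largely on this intron, with 7606 of the subunits' 10541 reads. Pde4dip had 616 reads in mouse dendrites, 678 in mouse somas, 20 in rat somas, 1101 in BAT cells and 4054 in cardiomyocytes, where intron 5 of the transcript shown above had 2906 and introns 31, 37 and 2 of another transcript had 594, 301 and 251. In the other transcript, intron 2 had 140 reads in mouse somas and intron 1 had 510 in mouse dendrites.

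Dendrites and somas were compared for their intronic reads, with the nucleus present in somas only. RPM values were compared for genes with at least 32 reads in either list. A gene that was absent from a list was set to a floor of 3 reads for the list, and its ratio is given as a lower bound. Such a bound covers listed reads only, because introns that the authors' filters removed are not in the lists. Of 41 genes compared in mouse, 22 were at least 4-fold higher in dendrites (53.7%, 38.7 to 67.9), where 53.2% of all genes compared are, and 5 were at least 4-fold higher in somas (12.2%, 5.32 to 25.5), where 22.8% are. In 11 of the 22 the soma list had no read. The median log2 ratio was 2.31 for these genes and 2.66 for all genes compared, both with genes absent from a list included. The value for all genes rests on such genes. All genes in both lists had a median of 0.55, or 0.28 under the median ratio described next. Among the 41, 28 were in both lists, with middle log2 ratios of 1.54 (Adcy2) and 1.85 (Prkg2), above the 0.55 of all genes. This difference was not tested. Scaling by the median ratio of the genes in both lists, in place of RPM, moves every log2 ratio by -0.27 in mouse, -0.73 in rat and -0.32 for BAT cells over cardiomyocytes. Directions given here hold under both scalings, except for Akap12 in rat and Prkaca in BAT cells, which change sign and are within 2-fold of no difference under either.

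Pde1c was at least 920-fold higher in mouse dendrites. Adcy1 was 264-fold higher (103 to 969) and Pde6a 179-fold (49.4 to 1483), the latter on 2 soma reads. The other way, Pde8a was at least 174-fold higher in somas, Pde10a 45-fold (40.4 to 50.3) and Prkaca 40.8-fold (10.7 to 346) on 2 dendrite reads. The direction of Pde10a rests on its intron 2. Without introns whose contigs touch an annotated exon, chosen after seeing the data, it had 283 reads in dendrites and 33 in somas and was 4.80-fold higher in dendrites (3.34 to 7.11). The remaining genes higher in somas were Gucy2g and Prkab2, a linker subunit of the AMP-activated kinase. By role, 4 of 4 phosphodiesterases of cyclic GMP were higher in dendrites, as were 4 of 6 with dual specificity, 3 of 5 of cyclic AMP, 3 of 6 AKAPs, 3 of 5 PKA subunits and 2 of 6 adenylyl cyclases. Kept to contigs of at most 400 nt, 29 genes remained to compare, and 22 were higher in dendrites (75.9%, against 57.8% of all genes) and 5 in somas (17.2%, against 22.8%). The share in dendrites thus depends on the contig limit. Only 15 and 3 of these genes were the same as before, and Prkaca, Prkab2, Pde6c, Pde1a, Pde7b, Pde8b and Prkar2a were among those no longer called. The counts by role moved too, to 3 of 3 phosphodiesterases of cyclic GMP, 3 of 5 with dual specificity, 1 of 3 of cyclic AMP, 4 of 4 AKAPs, 3 of 3 PKA subunits and 4 of 6 adenylyl cyclases.

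In rat, 11 of 26 genes were at least 4-fold higher in dendrites (42.3%, 25.5 to 61.1), where 48.1% of all genes compared are, and 12 were higher in somas (46.2%, 28.8 to 64.5), where 34.2% are. The median log2 ratio was -0.79, against 1.55 for all genes compared, and this difference was not tested. Both intervals hold the share of all genes. The value for all genes rests on genes absent from a list, since genes in both lists had a median of 0.22, or -0.51 under the median ratio. Akap11 was at least 768-fold higher in rat dendrites, Adcy4 at least 292-fold and Prkaa2, a catalytic subunit of the AMP-activated kinase, at least 129-fold. Pde4a was at least 124-fold higher in rat somas, Pde8b, which has high affinity for cyclic AMP, at least 83.4-fold and Pde1a at least 52.0-fold. All 4 phosphodiesterases of cyclic AMP that could be compared were higher in somas, and AKAPs split, with 3 of 7 higher in dendrites and 3 in somas. Akap6 was 4.44-fold higher in dendrites (4.19 to 4.72) and falls short of 4-fold under the median ratio. The rat counts depend on the contig limit. At 400 nt or less 14 genes remained to compare, 6 were higher in dendrites (42.9%, against 52.0% of all genes) and 6 in somas (42.9%, against 33.6%), and Akap6 passed 4-fold in the other direction, toward somas. Under that limit Akap11, Prkaa2, Pde4a, Pde8b, Adcy1 and Akap10 were among the genes no longer called.

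**Figure D4:**
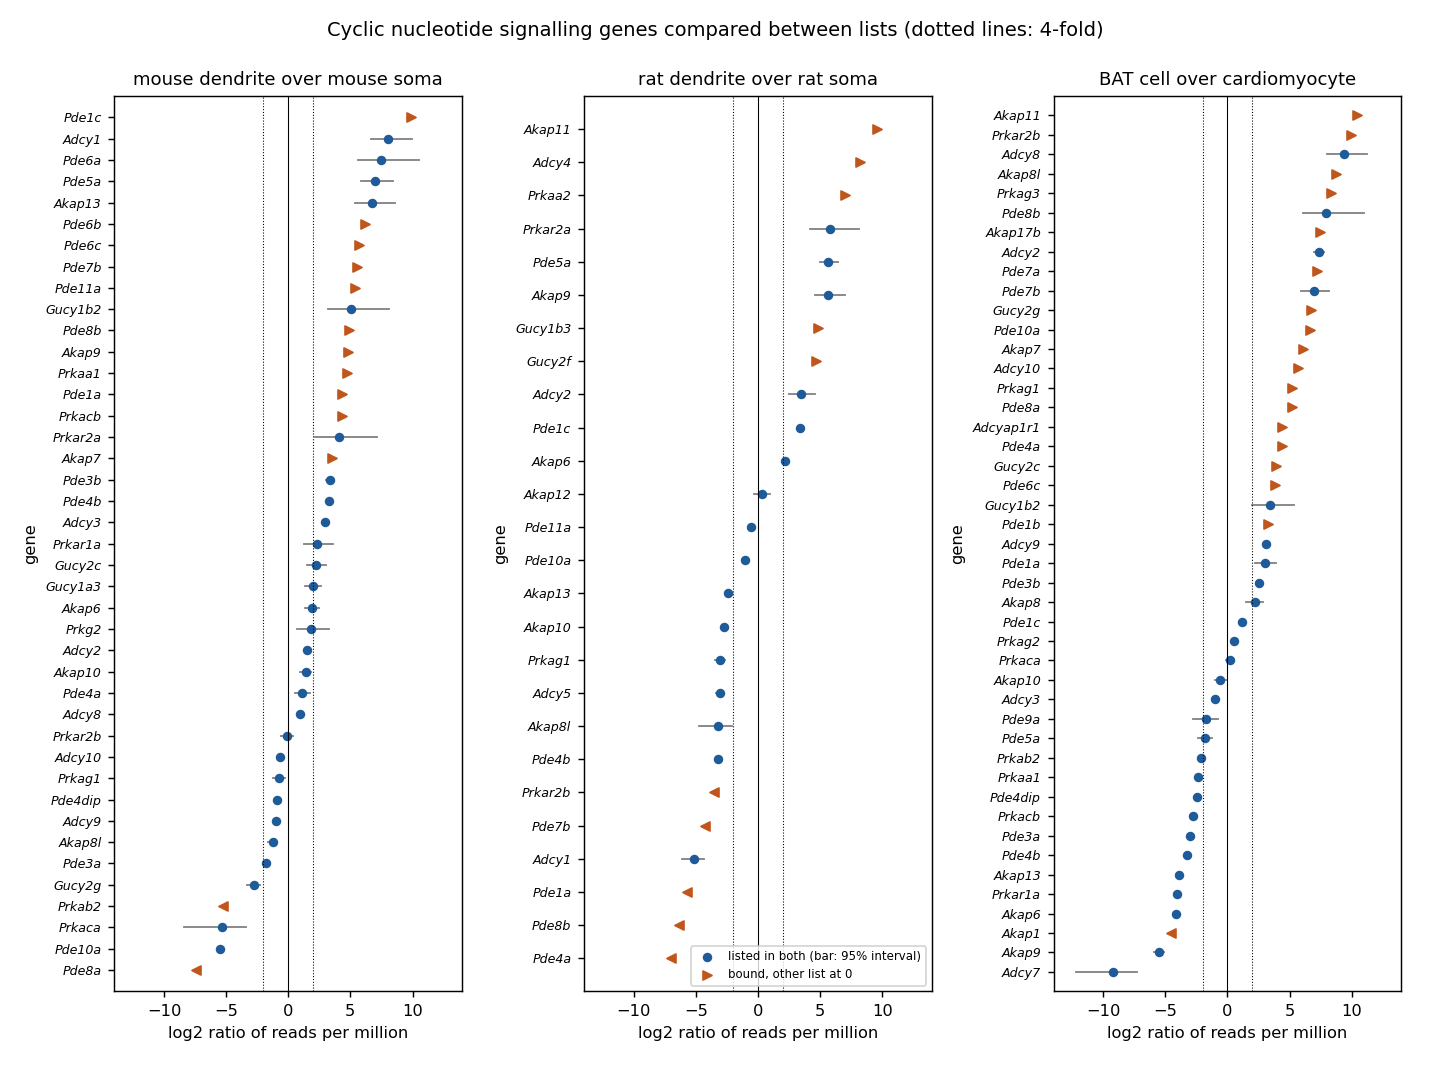
Log2 ratio of RPM (horizontal axes) for each gene compared (vertical axes) in the 3 pairs of lists, with points and 95% exact intervals for genes in both lists and triangles for lower bounds where one list has no read. Dotted lines mark 4-fold, which 22 and 5 of 41 genes pass in mouse, 11 and 12 of 26 in rat, and 26 and 12 of 45 for BAT cells over cardiomyocytes.

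Mouse and rat neurons were set side by side for the 19 genes compared in both. Of these, 4 were higher in dendrites past 4-fold in both species (21.1%, 8.51 to 43.3), where 21.4% of all 1849 genes compared in both are: Pde1c, Pde5a, Akap9 and Prkar2a, a regulatory subunit of PKA. For Pde5a the ratio of dendrites over somas was 128 (58.6 to 349) in mouse and 51.3 (32.1 to 87.3) in rat. No gene was higher in somas past 4-fold in both, where 9.46% of all genes are. Another 6 were past 4-fold higher in mouse dendrites and in rat somas (31.6%, 15.4 to 54.0), where 14.4% of all genes are. None went the other way, where 10.5% of all genes do, so opposite directions made up 31.6% here and 24.9% of all genes, and the interval holds the latter. These genes are Adcy1, Akap13, Pde1a, Pde4b, Pde7b and Pde8b. Adcy1 was 36.3-fold higher in rat somas (20.7 to 70.5), and Pde4b was 9.91-fold higher in mouse dendrites (8.68 to 11.4) and 9.44-fold higher in rat somas (8.29 to 10.8). The other 9 genes did not pass 4-fold in both species. In Prkar2a these ratios rest on 2 soma reads in mouse and 3 in rat. Kept to contigs of at most 400 nt, Pde1c, Adcy1 and Pde8b were no longer called in rat, and Prkar2a, Pde1a, Pde7b and Pde8b were no longer called in mouse. Species, strain, libraries and annotation differ together between these lists and cannot be told apart.

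**Figure D5:**
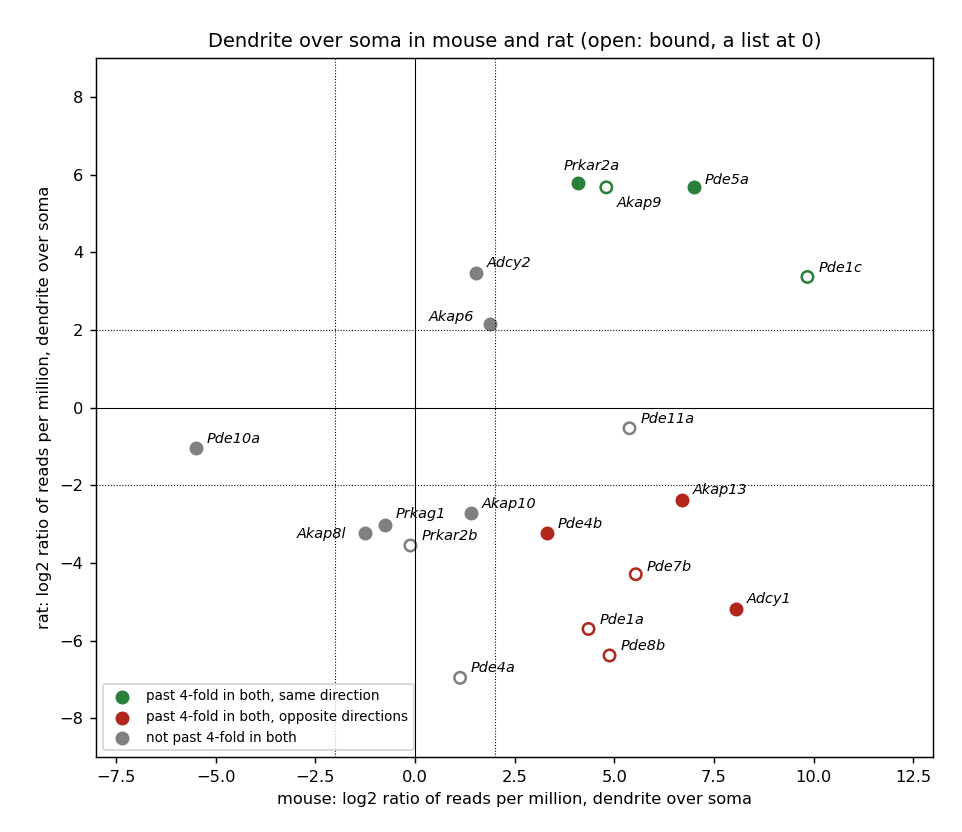
Log2 ratio of RPM of dendrites over somas in mouse (horizontal axis) and rat (vertical axis) for the 19 genes compared in both, with open circles where a list had no read and the ratio is a bound, and dotted lines at 4-fold. The 4 green genes pass in dendrites of both species and the 6 red genes pass in mouse dendrites and rat somas.

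BAT cells and cardiomyocytes were compared for intronic reads of the same pathway in other cell types. Of 45 genes compared, 26 were at least 4-fold higher in BAT cells (57.8%, 43.3 to 71.0), where 56.2% of all genes compared are, and 12 were higher in cardiomyocytes (26.7%, 16 to 41.0), where 23% are. The median log2 ratio was 3.08, against 3.05 for all genes compared, where genes in both lists had 0.36, or 0.04 under the median ratio. Akap11 was at least 1388-fold higher in BAT cells, Prkar2b at least 1005-fold and Adcy8 648-fold (253 to 2381). Adcy7 was 578-fold higher in cardiomyocytes (160 to 4782) on 2 BAT reads, Akap9 45.5-fold (34.3 to 61.5) and Akap1, an AKAP of the mitochondrial surface, at least 23.4-fold. Both directions thus hold AKAPs and cyclases. The shares, and the median with genes absent from a list included, are near those of all genes. The 27 of the 45 genes that were in both lists had a middle log2 ratio of -1.04 (Adcy3), toward cardiomyocytes. All genes in both lists had 0.36, and this difference was not tested. Akap6, Akap13 and Prkar1a were 18.0-fold (17.2 to 18.9), 15.2-fold (14.6 to 15.8) and 16.5-fold (14.4 to 19.0) higher in cardiomyocytes. Without introns whose contigs touch an exon, Akap13 was 6.81-fold and Prkar1a 79.9-fold higher in cardiomyocytes, and Prkar2b at least 95.7-fold higher in BAT cells. Under the same alternative Adcy9 went from 8.44-fold to at least 1503.5-fold higher in BAT cells. Prkag2 changed direction, from 1.42-fold higher in BAT cells to 1.82-fold higher in cardiomyocytes. By role, 5 of 6 phosphodiesterases of cyclic AMP were higher in BAT cells and Pde4b was higher in cardiomyocytes, while 4 of 6 adenylyl cyclases were higher in BAT cells and Adcy7 in cardiomyocytes. Of the pair that cyclic GMP inhibits, Pde3b was 5.88-fold higher in BAT cells (5.46 to 6.34) and Pde3a 8.13-fold higher in cardiomyocytes (7.74 to 8.55). At 400 nt or less 38 genes remained to compare, and 20 passed in BAT cells (52.6%, against 58.7% of all genes) and 11 in cardiomyocytes (28.9%, against 23%). Among those no longer called were Akap11, Pde8b, Pde1a and the bicarbonate-sensitive cyclase Adcy10 in BAT cells and Akap13, Pde3a and Pde4dip in cardiomyocytes, 7 and 3 genes in all, so the counts by role rest in part on longer contigs. The strain and the age also differ between these lists and cannot be told apart from the cell type.

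Whether a gene had the same most read intron in several lists was counted next. Of 55 mouse genes in at least 2 lists, 7 had the same most read intron in each of their lists (12.7%, 6.30 to 24), where 24.6% of all genes do, and 22 had a different one in each (40%, 28.1 to 53.2), where 37.3% do. Introns with equal reads were taken in order of transcript and number, and the lower share with the same intron was not tested. In rat 7 of 19 had the same one (36.8%, 19.1 to 59.0), near the 38.7% of all genes. Akap8l, a nuclear AKAP-like protein, had intron 12 as its most read intron in mouse dendrites, mouse somas and BAT cells, with contigs that do not overlap between any of them, while Akap9 had intron 15 in mouse dendrites, intron 18 in BAT cells and intron 44 in cardiomyocytes. Of 303 introns of these genes in the mouse lists, 195 (64.4%) were in 1 list and 14 in all 4, where 60.5% and 3.70% of all introns are. The introns in all 4 lists include intron 1 of Pde3a, Pde3b and Pde4b, introns 1 and 2 of Adcy8 and introns 3 and 5 of Akap13. Intron 2 of Adcy9 was among them too, with 100, 91, 337 and 616 reads in mouse dendrites, mouse somas, BAT cells and cardiomyocytes.

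Mouse dendrites and somas shared 35 introns, 24% of those in dendrites and 53.0% of those in somas, where 25.9% and 47.8% of all introns are shared. BAT cells and cardiomyocytes shared 40, 21.3% and 58.8% against 26.1% and 60%, and rat dendrites and somas shared 16, 26.7% and 34.0% against 24.9% and 34.8%. The sharing of introns is thus near that of all genes. Contigs overlapped in 14 of the 35 mouse neuron introns (40%), where 58.0% of all introns shared by the lists do, in 16 of the 40 (40%) for BAT cells and cardiomyocytes against 65.3%, and in 8 of the 16 (50%) in rat against 66.5%. A shared intron of these genes thus often held its reads at separate places, and the difference from all introns was not tested. Some of these introns have very few reads in 1 list. Intron 2 of Pde3a had 1480 reads in mouse dendrites and 2 in mouse somas, but intron 12 of Akap8l had 106 and 151. Intron 1 of Pde4b had overlapping contigs in mouse dendrites with each of the other mouse lists, and intron 4 of Akap6 and intron 7 of Akap13 had them in BAT cells and cardiomyocytes.

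The introns that held reads were long. Their median length was 5574 nt in mouse dendrites, 5536 in mouse somas, 3967 in BAT cells and 5542.5 in cardiomyocytes, against 3895.5, 3775, 2722 and 2735 nt for all introns of the lists. Introns of at least 10000 nt made up 32.6% (25.5 to 40.7), 34.9% (24.3 to 47.2), 21.6% (16.3 to 28.1) and 35.9% (25.3 to 48.2), against 21.9%, 22.8%, 15.5% and 16.9%. The contigs were short beside them, with a median of 5.80%, 5.36%, 7.60% and 7.60% of the intron covered, against 8.52%, 9.31%, 13.4% and 12.7% of all introns. Their own median lengths, 259, 267, 257.5 and 317 nt, were close to the 257, 278, 274 and 283 nt of all contigs, while in rat they were longer, 365.5 nt in dendrites and 432 nt in somas against 279 and 304. One contig was found in 78.8% of the introns in mouse dendrites, 87.9% in mouse somas, 83.3% in rat dendrites, 80.9% in rat somas, 76.1% in BAT cells and 83.8% in cardiomyocytes, against 80.0%, 85.9%, 89.7%, 90.2%, 77.8% and 85.3% of all introns.

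Of the mouse introns with 1 contig, the contig lay in the first of 3 equal parts of the intron in 28 of 53 in cardiomyocytes (52.8%, against 29.0% of all introns) and 25 of 55 in mouse somas (45.5% against 32.6%). In mouse dendrites it did so in 31.0% against 31.6%, and in BAT cells in 31.2% against 27.8%. Intron 3 of Akap13 is an example from cardiomyocytes, with a contig of 394 nt at the start of an intron of 9470 nt. These differences were not tested. Contigs that touch an annotated exon made up 4.31%, 3.70%, 2.87% and 8.70% of the contigs in mouse dendrites, mouse somas, BAT cells and cardiomyocytes, against 5.04%, 9.62%, 7.54% and 11.4% of all contigs. Few as they are, the introns that hold them had 3.16%, 56.5%, 19.6% and 28.5% of the genes' reads, where such introns hold 8.77%, 15%, 13.1% and 21.2% of all reads. Mouse somas stand furthest from the list, through 1 intron of Pde10a.

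The neighbours of the pathway were counted from a set of 73 genes outside the symbol rule. Of 25 compared in mouse neurons, 14 were higher in dendrites (56%, 37.1 to 73.3, against 53.2% of all genes) and 3 in somas (12%, 4.17 to 30.0, against 22.8%). Of 17 in rat, 7 were higher in dendrites (41.2%, against 48.1%) and 5 in somas (29.4%, against 34.2%). Of 28 in BAT cells and cardiomyocytes, 16 were higher in BAT cells (57.1%, against 56.2%) and 6 in cardiomyocytes (21.4%, against 23%), so the neighbours lie near all genes. Among effectors, Cngb3, a subunit of the cyclic nucleotide-gated channel of cones, had 3393 reads in mouse dendrites, 1930 in mouse somas, 56749 in BAT cells and 15 in cardiomyocytes. Popdc2 and Bves, cyclic AMP-binding proteins of heart muscle, had 18054 and 5677 reads in cardiomyocytes, and 2 and 3262 in BAT cells. Of the 3 effectors compared between these cells, Cngb3 passed 4-fold in BAT cells and Popdc2 in cardiomyocytes, and Bves did not pass. Crebbp and Ep300, the coactivators of the transcription factor CREB, had 30503 and 4020 reads in BAT cells and 24980 and 4242 in cardiomyocytes. Creb1 itself had 34770 reads in BAT cells, 70 in mouse somas and none elsewhere.

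Upstream of the cyclases, the inhibitory G protein subunit Gnai3 had 5997 reads in BAT cells, 673 in mouse somas and 294 in mouse dendrites, Gnal, the stimulatory subunit of olfactory and striatal neurons, had 797 in rat somas only, and Gnai1 had 435 in rat dendrites and 286 in cardiomyocytes. Among receptors, Gabbr1, a subunit of the GABA-B receptor, had 22717 reads in BAT cells and at most 144 elsewhere. The serotonin receptors Htr4 and Htr7 had 1223 and 393 reads in mouse dendrites and 40 and 56 in mouse somas. For nitric oxide, Nos1ap, an adaptor of the neuronal synthase, had 5649 reads in mouse dendrites, 864 in mouse somas, 4552 in BAT cells and 1328 in cardiomyocytes. Nos2, the inducible synthase, had 3615 in BAT cells only, and Npr2, a natriuretic peptide receptor, had 131 in cardiomyocytes and 2 in rat somas. The PKA inhibitors Pkia and Pkib had 1538 and 426 reads in BAT cells, with 629 for Pkia in cardiomyocytes. The exporters Abcc4 and Abcc5, which pump cyclic nucleotides out of cells, had 1804 and 693 reads in BAT cells, and Abcc5 had 806 in rat somas.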

How the data were processed

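The counts are intronic reads of whole introns in the lists the authors deposited. The authors pooled the libraries of each group, kept uniquely mapped intronic reads and joined them into contigs. According to the paper, introns were removed if they overlapped predicted genes or annotated noncoding RNAs, held a poly(A) site, or had junction reads only. A gene absent from a list may thus have had reads in introns that were removed. They are raw, and each of the introns with several contigs carries 1 value, which was taken once per transcript and intron. The members and lists were chosen with earlier results of these data known. Positions were checked against the annotation: start and stop both count from 0 and the stop is the last base. All contigs were kept.

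Python 3.11.15, pandas 2.3.3, numpy 2.4.6, scipy 1.17.1, pysam 0.24.0 and matplotlib 3.10.9 were used. Ratios used genes with at least 32 reads in either list, a floor of 3 reads per list and a threshold of 4-fold, and the calls were tested on simulated data. Runs had at least 10 bases within 300 nt. The annotation and genome behind the mouse positions are those of NCBIM37 (mm9). Rat sequence and intron lengths were not analysed here.

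Named genes are the 6 with the most reads in each list, with every intron of at least 32 reads, genes in all 6 lists, the 3 highest and 3 lowest ratios of each comparison, and the 3 most read genes of each pathway set. Others named were chosen after their values were seen. Alternatives were other read minimums, floors, scalings and contig lengths, leaving out the 10 most read introns, a stricter set of genes and other run lengths.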

Additional observations from a re-analysis of the deposited data

Results flagged for a closer look

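For 6 genes the ratio of dendrites over somas went past 4-fold in opposite directions in mouse and rat, upward in mouse each time. They are 31.6% of the 19 genes compared in both species (15.4 to 54.0), where 24.9% of all genes go opposite ways. Of all genes, 14.4% go upward in mouse and downward in rat, and 10.5% go the other way, as none of these genes do. Each species has 1 pooled list per compartment, so the difference between the species was not tested. On the log2 scale the mouse ratio minus the rat ratio was 13.23 for Adcy1, with 1755 and 4 reads in mouse dendrites and somas and 12 and 906 in rat. It was 9.08 for Akap13 (695 and 4 reads in mouse, 339 and 3642 in rat) and 6.55 for Pde4b (3810 and 231 in mouse, 237 and 4652 in rat). Without introns whose contigs touch an annotated exon, Akap13 had 104 reads in mouse dendrites and 4 in mouse somas. Its mouse ratio was then 14.5, against 104 with them. For Pde1a, Pde7b and Pde8b both ratios are lower bounds, since 1 list in each species has no read. The difference was at least 10.05 for Pde1a (102 reads in mouse dendrites, 324 in rat somas), 9.83 for Pde7b (232 and 122) and 11.26 for Pde8b (147 and 520). At 400 nt of contig or less, Adcy1 and Pde8b were no longer called in rat, and Pde1a, Pde7b and Pde8b were no longer called in mouse.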

How the results depend on the processing

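No paired analysis was possible because each group has 1 pooled list. Of 132 values recomputed under other settings, 94 stayed within the interval of a share or within 1.5 times a count. The share of list reads is given below in the order mouse dendrites, mouse somas, rat dendrites, rat somas, BAT cells and cardiomyocytes. Kept to contigs of at most 400 nt it was 1.27%, 1.6%, 0.437%, 1.74%, 0.699% and 1.29%. Without the 10 most read introns of each list it was 0.883%, 0.972%, 1.42%, 1.76%, 0.43% and 0.979%. Without the subunits of the AMP-activated kinase, Adcyap1r1 and Pde4dip it was 0.813%, 0.84%, 1.16%, 1.49%, 0.344% and 0.814%. Without introns whose contigs touch an annotated exon, chosen after seeing the data, it was 0.892% in mouse dendrites, 0.453% in mouse somas, 0.38% in BAT cells and 0.819% in cardiomyocytes.

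Genes with an intron of at least 32 reads numbered 19 in mouse somas, 19 in rat dendrites and 17 in rat somas. Kept to contigs of at most 400 nt, rat dendrites held 20 genes, genes with an intron of at least 256 reads numbered 2 in mouse somas, 1 in rat dendrites and 6 in rat somas, and the genes past 4-fold in rat numbered 6 in dendrites and 6 in somas. At a minimum of 128 reads such genes numbered 20 in mouse dendrites and 9 in mouse somas, and at 512 reads 4 in rat dendrites. Runs of at least 12 adenines followed 4.31% of the contigs in mouse dendrites and 2.87% in BAT cells, and runs of at least 8 followed 11.1% in BAT cells and 11.3% in cardiomyocytes. A limit on contig length or a read minimum leaves fewer introns by construction. Under the length limit an intron with a shorter contig left keeps its whole read count. For the other settings the cause was not tested. Depth per library is not known from the lists, and genes with few reads can be missing from the smaller lists, rat dendrites above all.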
